A study of Homo sapiens with 4 samples.

Results

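The replication-dependent histone genes encode the bulk of the histone protein that packs newly copied DNA, and their transcripts were compared here between lung adenocarcinoma cells carrying activated AKT1 and their vector controls. The members were taken by symbol: the protein-coding genes H1-1 to H1-6 and all genes named H2AC, H2BC, H3C or H4C with a number in GENCODE release 44. The annotation holds 69 such genes, of which 67 had an identifier among the 60558 genes of each library and 63 had at least 1 read in any library. H2AC18 and H2AC19 were not matched. The genes were chosen with the difference between myr-AKT1 and vector cells already known, so all values of that contrast are given as a description, without a test.

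Chromatin wraps DNA around an octamer of the core histones H2A, H2B, H3 and H4, and the linker histone H1 binds where DNA enters and leaves the octamer. The replication-dependent genes are transcribed mainly in S phase, from clusters in which many near-identical copies lie side by side. Most of their mRNAs have no introns and end in a short stem-loop instead of a poly(A) tail. The stem-loop binding protein SLBP recognises that structure, the U7 small nuclear RNA guides the cut behind it, and the coactivator NPAT drives transcription after phosphorylation by cyclin E and CDK2.

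A549 and HCC827 are established human lung adenocarcinoma lines; A549 lacks the CDKN2A locus and HCC827 carries an amplified, mutated EGFR. Each line was studied with an empty vector and with myr-AKT1, an AKT1 whose myristoylation signal holds it at the membrane and keeps it active, which gave 4 groups, named A549-vector and A549-myr-AKT1 in the first line and HCC827-vector together with HCC827-myr-AKT1 in the second. Every group was 1 library, so no difference within a line has a replicate check, and the sources used here do not say whether the transduced cells were a pool or a clone. By the labels ribosomal RNA was depleted before library construction, whereas by the Methods poly(A) RNA was selected, a step that bears on mRNAs without a poly(A) tail.

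The libraries held between 16322183 and 33530317 reads in genes. AKT1 had normalized counts of 6297 in A549-myr-AKT1 against 4243 in A549-vector and of 4805 in HCC827-myr-AKT1 against 2175 in HCC827-vector. CDKN2A had 0 reads in both A549 libraries and 2055 and 4344 in the HCC827 libraries, and the epithelial markers EPCAM, KRT8, KRT18 and CDH1 were present in all 4. AKR1C1, listed as an A549 marker, had 15 reads in HCC827-vector and 2098 in HCC827-myr-AKT1, beside 15141 and 28896 in A549. AKR1B10, also listed, had 900 and 5079 in HCC827 beside 66327 and 48531 in A549, and NQO1 had 11042 and 7610 beside 65372 and 32826. The summed markers of other cell types were higher in the myr-AKT1 library of each line, but not every single marker was. The 4 fibroblast markers summed to 4.86 RPM (reads per 1000000 reads of the library) in A549-vector and 40.1 in A549-myr-AKT1, and to 2.09 and 8.76 in HCC827, with COL1A2 at 0 reads in all 4. COL1A1 had 88 and 668 reads and LUM 26 and 304 in A549. PDGFRA had 49 and 38 reads in A549 (log2 fold change 0.024, interval -0.63 to 0.67), and LUM had 1 and 1 in HCC827. PTPRC had 5 reads in HCC827-vector and 0 in HCC827-myr-AKT1, and VWF had 1 in A549-vector and 0 in A549-myr-AKT1. The 3 leukocyte markers summed to 0.119 to 3.02 RPM, with CD3E at 0 reads, and the 3 endothelial markers to 0.447 to 6.74 RPM, each lowest in A549-vector. Their part in the histone values was not tested. Mitochondrial ribosomal RNA took 1107 RPM in A549-vector and 1405 in A549-myr-AKT1, but 916 in HCC827-vector and 3054 in HCC827-myr-AKT1. Over all genes, a limma fit with cell line as a block called 250 genes higher and 335 lower in myr-AKT1 cells of 19314 tested, with 1 residual degree of freedom.

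The members share sequence features that the choice by name did not use. The histone 3′ stem-loop was searched on the transcript strand, in the genome behind the stop codon, as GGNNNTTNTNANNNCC with 6 paired bases on each side of a 4-base loop. It lay within 100 bases behind the stop codon in 69 of 69 members, at a median distance of 35 bases (range 22 to 67), and in 3 of 19855 other protein-coding genes (0.0151%), which were H2AX, H3-4 and H3-7. Of its forms, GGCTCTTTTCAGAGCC was carried by 40 members, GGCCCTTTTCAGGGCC by 10, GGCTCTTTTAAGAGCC by 9 and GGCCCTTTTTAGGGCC by 4, and 6 other forms occurred once each. The element is shown for 6 members described below, with the stem-loop in capitals and 4 flanking bases on each side, 5′ to 3′ on the transcript strand of GRCh38.
H1-4 (chr6:26157095-26157110, plus strand): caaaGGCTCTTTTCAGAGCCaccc
H3C2 (chr6:26031597-26031612, minus strand): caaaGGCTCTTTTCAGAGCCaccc
H2BC5 (chr6:26158587-26158602, plus strand): caaaGGCTCTTTTAAGAGCCacgc
H4C5 (chr6:26205001-26205016, plus strand): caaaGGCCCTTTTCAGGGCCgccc
H4C6 (chr6:26240778-26240793, plus strand): aaaaGGCCCTTTTCAGGGCCacct
H4C16 (chr12:14770724-14770739, minus strand): aaaaGGCCCTTTTCAGGGCCccca

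The upstream regions also set the classes apart. Among promoters of 300 bases from RefSeq on GRCh38.p14, 64 of the 69 members were matched, and motifs were searched on both strands. The core promoter word TATAAA was present in 65.6% of the members' promoters and in 11.95% of all 27305 promoters. CCAAT, the box bound by NF-Y, was found in every matched promoter of the H1, H2A, H2B and H3 classes but in 3 of 13 H4 promoters (23.1%), against 35.7% of all promoters. The octamer ATTTGCAT, bound by POU2F1, was held by 11 of 16 H2A and 14 of 18 H2B promoters, and by 1.80% of all promoters. GGTCCG was held by 12 of 13 H4 promoters (92.3%) and by 11.2% of all promoters.

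A histone H2A gene and an H2B gene often stand head to head and share the DNA between their start sites. There were 12 such pairs, with 169 to 250 bases between the annotated starts. All 12 spacers contained CCAAT, 9 contained ATTTGCAT and 8 contained TATAAA, each counted on either strand, and TATAAA overlaps its own reverse complement in TTTATAAA. A pair of spacers is shown because the first lies between genes that had almost no reads in A549 and the second between genes whose levels parted in HCC827. Capitals mark the 3 motifs on either strand, and the letters run 5′ to 3′ on the plus strand of GRCh38.
H2AC8/H2BC8 (chr6:26216689-26216920): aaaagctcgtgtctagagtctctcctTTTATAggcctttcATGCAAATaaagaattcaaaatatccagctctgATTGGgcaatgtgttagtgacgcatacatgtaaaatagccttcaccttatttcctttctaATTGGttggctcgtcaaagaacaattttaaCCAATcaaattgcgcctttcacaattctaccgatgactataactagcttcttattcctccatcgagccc
H2AC14/H2BC14 (chr6:27814778-27815021): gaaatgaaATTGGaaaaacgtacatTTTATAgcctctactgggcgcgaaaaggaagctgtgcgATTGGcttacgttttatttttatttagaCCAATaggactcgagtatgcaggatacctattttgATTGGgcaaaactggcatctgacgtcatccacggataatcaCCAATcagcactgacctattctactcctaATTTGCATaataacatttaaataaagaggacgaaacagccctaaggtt

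The histone genes as a whole took a smaller share of the library in myr-AKT1 cells of both lines. In RPM, their sum was 8258 in A549-vector and 1477 in A549-myr-AKT1, and 7433 in HCC827-vector and 1690 in HCC827-myr-AKT1. On the deposited scale, which divides each read count by 1 size factor per library, the log2 fold change of the sum (myr-AKT1 over vector) was -2.51 in A549 (95% Clopper-Pearson interval -2.52 to -2.49, a 5.68-fold lower level) and -2.22 in HCC827 (-2.24 to -2.20, 4.65-fold lower). These intervals cover counting error only, not the spread between cultures. In bulk RNA, fewer cells in S phase and less histone RNA per cell cannot be told apart.

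Member by member, 43 of the 58 genes read in both A549 libraries lay below a log2 fold change of -2, the study's own cut-off, and 0 lay above 2. Over all genes with reads in both libraries 3.62% were below -2 and 6.89% above 2. In HCC827, 42 of 63 members lay below -2 and 1 above 2, where 3.87% of all genes lay below -2 and 6.13% above 2. The median member stood at -2.71 in A549 and at -2.43 in HCC827, and the median of all genes was 0 in both lines, where the scaling places it. When genes had to average 50 normalized counts or more in the pair, 41 of 50 members in A549 and 40 of 54 in HCC827 were below -2, beside 2.34% and 1.86% of all such genes. Above 2 lay 0 of these members in both lines, beside 3.76% of all such genes in A549 and 2.69% in HCC827. Since the members were chosen on this contrast, these shares describe the group and carry no evidence of their own.

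**Figure D1:**
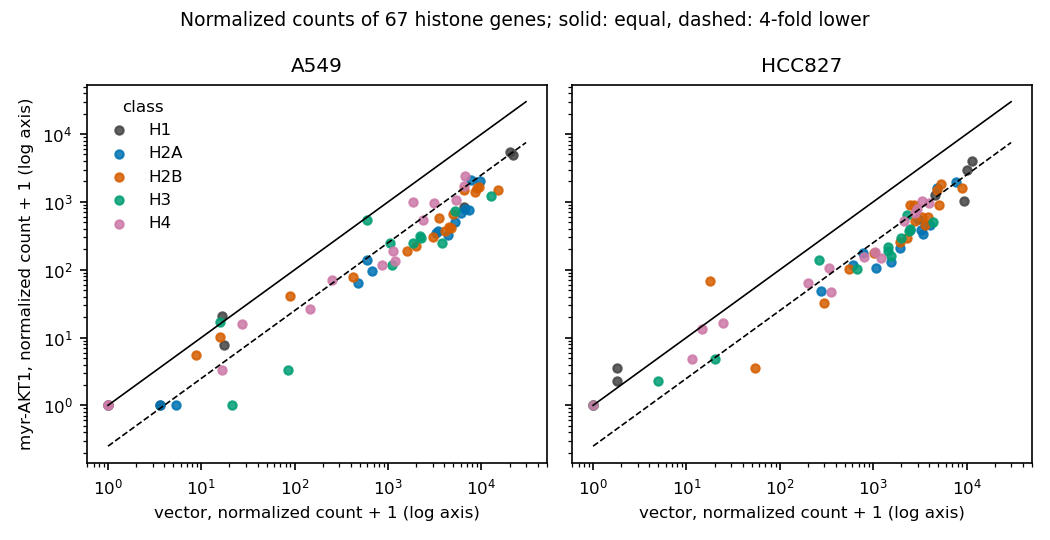
Each point is 1 of 67 histone genes, with its normalized count plus 1 in vector cells on the x axis and in myr-AKT1 cells on the y axis (both log axes), for A549 on the left and HCC827 on the right, coloured by histone class. The solid line marks equal levels and the dashed line a level 4-fold lower in myr-AKT1 cells, and 43 members in A549 and 42 in HCC827 lie below the dashed line by their log2 fold change.

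The linker histones supplied the most abundant members. H1-4 had 24998 reads in A549-vector and 4279 in A549-myr-AKT1, and 14443 in HCC827-vector and 3182 in HCC827-myr-AKT1, a log2 fold change of -2.16 (-2.20 to -2.11) in A549 and -1.52 (-1.58 to -1.46) in HCC827. H1-2 had 23342 and 4779 reads in the same order in A549 and 12577 and 2348 in HCC827, at -1.90 and -1.76. Both genes were lower in the myr-AKT1 library of each line, and they ranked first and second by reads in all 4 libraries. H1-3 stood at -2.95 in A549 and -1.83 in HCC827.

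H1-5 was close to absent in A549, with 19 reads in vector and 6 in myr-AKT1 cells (log2 fold change -1.27, interval -2.89 to 0.11), but had 11837 and 832 reads in HCC827 (-3.17, -3.27 to -3.07). The testis-enriched linkers H1-1 and H1-6 had at most 3 and 18 reads in any library. H1 genes summed to 1663 RPM in A549-vector and 389 in A549-myr-AKT1, and to 1632 and 452 in HCC827. Their share of all histone reads was 20.1% in A549-vector and 26.4% in A549-myr-AKT1, and 21.96% and 26.8% in HCC827, so the linker class was less reduced than the histone sum in both lines.

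The H2A genes were lower almost without exception. Of 12 members with reads in both A549 libraries, 11 lay below -2, and of 14 in HCC827, 13 did. H2AC20, the H2A gene with the most reads, had 10934 reads in A549-vector and 1764 in A549-myr-AKT1, and 9808 and 1544 in HCC827, at -2.24 (-2.31 to -2.17) and -2.004 (-2.08 to -1.93). H2AC6 was the least reduced, at -1.85 in A549 and -1.57 in HCC827, and its exons overlap another gene on the same strand. H2AC12 had 4965 and 283 reads in A549 and 2428 and 166 in HCC827, which gave -3.74 (-3.92 to -3.57) and -3.21 (-3.44 to -2.98). In A549 it ranked 11 from the lowest of the 13965 genes that averaged 50 normalized counts or more. H2AC16 reached -3.56 in HCC827, rank 17 of 13096, and -2.90 in A549.

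Among the H2B genes, H2BC18 had 17409 reads in A549-vector and 1325 in A549-myr-AKT1, and 11355 and 1277 in HCC827, at -3.32 (-3.41 to -3.24) and -2.49 (-2.57 to -2.41). In RPM per kilobase of coding sequence, its level in A549-vector was 1282, beside 1129.6 for H1-4, 1084 for H1-2 and 1047 for H3C2. H2BC18 has 1798 annotated exon bases but 405 coding bases, whereas H1-4 has 787 and 660. The comparison of these 4 genes therefore depends on the length used. H2BC12, H2BC4 and H2BC21, the next by reads, stood at -2.52, -2.48 and -2.63 in A549 and at -2.51, -1.71 and -1.52 in HCC827. The lowest member in A549 was H2BC17, at -3.53. H2BC5 had 7531 and 1303 reads in A549 and 3440 and 723 in HCC827, at -2.14 and -1.59. All 17 H2B genes with reads in both A549 libraries had a fold change below 0.

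H2BC6 was the exception among the H2B genes. It had 4038 reads in A549-vector and 508 in A549-myr-AKT1, a log2 fold change of -2.60 (-2.74 to -2.47), but 21 reads in HCC827-vector and 54 in HCC827-myr-AKT1, at 2.03 (1.27 to 2.83). It was the member above 2 in HCC827. Its annotated exons overlap a gene on the opposite strand, and the sources used here do not say whether reads were counted by strand.

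The H3 class was the lowest by its sum. H3C2 had 14429 reads in A549-vector and 1048 in A549-myr-AKT1, and 5495 and 407 in HCC827, at -3.39 (-3.48 to -3.30) and -3.09 (-3.24 to -2.95). H3C12 had 4340 and 214 reads in A549 and 1945 and 126 in HCC827, at -3.95 (-4.16 to -3.75) and -3.29 (-3.56 to -3.02), and ranked 4 from the lowest of 13965 genes in A549. Its exons overlap those of H2AC17 on the same strand. H3C15 had 97 reads in A549-vector and 2 in A549-myr-AKT1 (-5.21, -8.27 to -3.32), and all of its 50-base windows also occur in another histone gene or pseudogene, so its reads cannot be assigned with confidence. H3C14 had 23 and 0 reads in A549, which is 5.85-fold lower when a floor of 3 reads is set. The upper counting limit of its log2 fold change was -2.13. Since 99.2% of its windows are shared as well, its reads cannot be assigned with confidence either.

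H3C6 was nearly level in A549, with 682 reads in vector and 477 in myr-AKT1 cells (-0.12, -0.30 to 0.05), and stood at -0.90 (-1.23 to -0.59) in HCC827, with 329 and 111 reads. It is 1 of 16 members with an identifier in the files whose annotation includes a spliced transcript, a form that can end in a poly(A) tail. These 16 genes summed to a log2 fold change of -2.41 in A549 and -1.97 in HCC827, and the 51 without a spliced transcript to -2.54 and -2.28. Their medians were -2.46 and -1.71 for the spliced group and -2.82 and -2.52 for the unspliced group.

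The H4 class was the least reduced in A549, and its share of histone reads went from 12.2% in vector to 19.3% in myr-AKT1 cells. In HCC827 the share was 11.9% and 13.6%. H4C5 had 7671 reads in A549-vector and 2123 in A549-myr-AKT1, and 4241 and 816 in HCC827, at -1.46 (-1.53 to -1.39) and -1.71 (-1.82 to -1.61). H4C3 stood at -1.96 and -1.89 and H4C4 at -2.31 and -2.02. H4C8 parted between the lines, at -1.69 in A549 and -3.06 in HCC827.

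H4C16, the single member on chromosome 12 (chr12:14767999-14771131, minus strand), had 2102 reads in A549-vector and 859 in A549-myr-AKT1, and 2672 and 413 in HCC827. Its log2 fold change was -0.90 (-1.02 to -0.78) in A549 and -2.03 (-2.18 to -1.88) in HCC827, and 5 of its 6 annotated transcripts are spliced. H4C9 had 1359 and 115 reads in A549 (-3.17), but 17 and 10 in HCC827 (-0.10, -1.39 to 1.11).

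By class, the summed log2 fold changes in A549 ran from -1.84 (-1.88 to -1.80) for H4 through -2.12 for H1, -2.75 for H2A and -2.83 for H2B to -2.95 (-3.00 to -2.90) for H3. In HCC827 they were -1.93 (-1.97 to -1.90) for H1, -2.02 for H4, -2.20 for H2B, -2.48 for H2A and -2.65 (-2.71 to -2.59) for H3. H3 was the lowest and H1 and H4 the 2 least reduced classes in both lines, but without the member with the most reads of each class H3 stood at -2.71 beside -2.88 for H2A in A549 and at -2.54 beside -2.63 in HCC827, where H1 (-2.18) then lay below H2B (-2.14). Near-identical copies share reads: 13 members had over 50% of their 50-base windows in common with another of 187 histone genes and pseudogenes, and 32 had none. The sources used here do not say how reads that match several copies were counted.

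**Figure D2:**
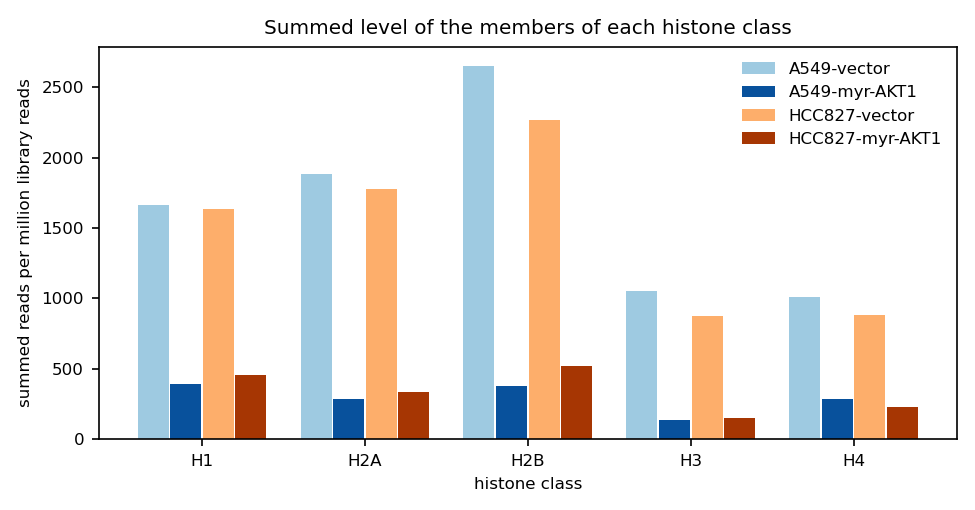
Bars give the summed RPM of the members of each histone class (x axis) in the 4 libraries, 1 bar per library without an error bar because each group is 1 library. In every class both vector bars stand above both myr-AKT1 bars, from 1663 against 389 for H1 in A549 to 874 against 147 for H3 in HCC827.

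By location, the 21 genes of the second chromosome 6 group (chr6:27125897-27893891) were lower than the 34 of the first (chr6:25723397-26285638). The second group summed to 2340.0 RPM in A549-vector and 275 in A549-myr-AKT1, a log2 fold change of -3.11 (-3.15 to -3.08), and to 2179 and 351 in HCC827, at -2.71 (-2.75 to -2.67). The first group stood at -2.22 (-2.24 to -2.20) and -2.03 (-2.05 to -2.01). The 9 genes of 1q21 (chr1:149782689-149887965) summed to -2.83 in A549 and -2.12 in HCC827, and the pair at 1q42 to -2.24 in both lines. Because the first group holds H1-2, H1-4 and the H4 genes with the most reads, location and class were not independent. For H2A genes, which occur in both groups, the sums were -2.15 in the first and -3.24 in the second group in A549, and -2.12 and -3.00 in HCC827. The first-group sum leaned on H2AC6, with 8766 of 12732 reads in A549-vector and 6081 of 11831 in HCC827-vector. The H2A medians were -2.53 over 2 genes and -3.15 over 7 in A549, and -2.79 over 4 and -3.16 over 7 in HCC827. For H4 genes the sums were -1.87 and -2.83 in A549 but -2.02 and -1.999 in HCC827. H3 genes turned between the lines, with -2.85 in the first and -3.27 in the second group in A549 but -2.75 and -2.39 in HCC827, and H2B genes stood at -2.49 and -2.99 in A549 and at -2.20 and -2.36 in HCC827.

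The lines were set side by side over the 55 members that had 20 or more reads in both pairs. Of these, 32 lay below -2 in both lines, and 2, H2BC6 and H3C8, had opposite signs. Over all genes 3.62% lay below -2 in A549 and 3.87% in HCC827, and the share below -2 in both lines was not counted. H3C8 in A549 rested on 17 reads in vector and 14 in myr-AKT1 cells, with an interval that spans 0 (0.11, -1.02 to 1.22). The log2 fold change was nearer to 0 in HCC827 for 38 members and in A549 for 17, with a median difference (HCC827 minus A549) of 0.22. Across these 55 genes, which share the same 4 libraries, Pearson's r was 0.289 and Spearman's rho 0.472, given as a description.

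**Figure D3:**
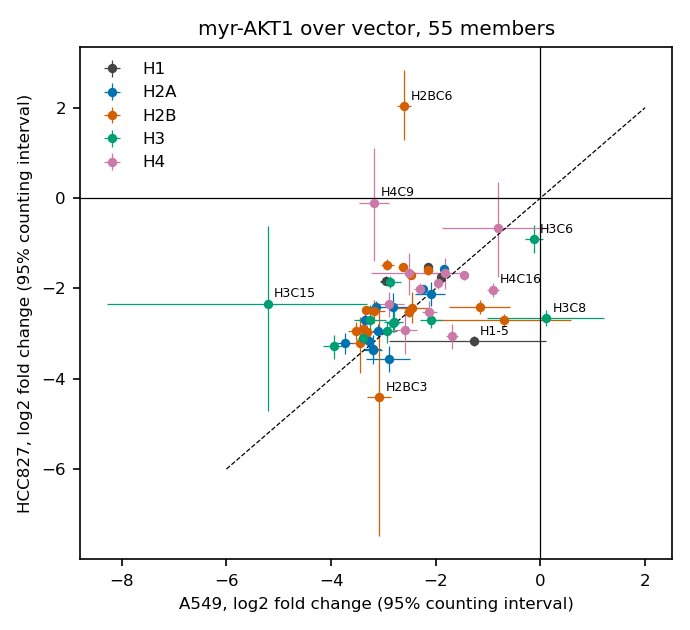
Each point is a histone gene that had 20 or more reads in both pairs of libraries, with its log2 fold change (myr-AKT1 over vector) in A549 on the x axis and in HCC827 on the y axis and 95% counting intervals as bars. Most points fall in the lower left below -2 on both axes, H2BC6 lies above 0 in HCC827 at 2.03, and the dashed line marks equal values.

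The copies with reads were also compared between A549 and HCC827, a contrast that the choice of members did not use. Of 54 members with over 200 reads in HCC827-vector, 7 had at most 20 reads in both A549 libraries, beside 2.39% of all genes with over 200 reads there. This limit was set after the values were seen, and the 7 were H2AC7, H2AC8, H2BC8, H2BC9, H3C8, H4C6 and H1-5. H4C6 had 0 reads in both A549 libraries, and 4981 in HCC827-vector and 773 in HCC827-myr-AKT1. Set at a floor of 3 reads, its level in A549-vector was 2038-fold lower than in HCC827-vector. The upper counting limit of the log2 ratio of A549-vector to HCC827-vector was -10.7. H2AC8 had 5 and 0 reads in A549 and 4072 and 308 in HCC827. H2BC8, its head-to-head partner, had 9 and 4 reads in A549 and 4238 and 478 in HCC827. Both genes at the H2AC8/H2BC8 spacer printed above were thus near 0 in one line and high in the other.

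H2BC9 had 17 and 8 reads in A549 and 4848 and 469 in HCC827. H3C8 had 17 and 14 in A549 and 3148 and 316 in HCC827. H2AC7 had 3 and 0 in A549 and 344 and 38 in HCC827, a log2 ratio of A549-vector to HCC827-vector of -7.14 (-9.42 to -5.58). Apart from H1-5, these genes lie within the first chromosome 6 group, and genes between them were read in A549-vector: H4C5 had 7671 reads, H1-3 7371, H3C7 1199 and H3C6 682. H2AC7 shares exon sequence on the same strand with a longer gene, ENSG00000282988 (chr6:26195595-26199293), which had 36 and 5 reads in A549 and 3860 and 312 in HCC827.

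In the reverse direction, 1 of 48 members with over 200 reads in A549-vector, H4C9, had at most 20 in both HCC827 libraries, beside 3.38% of all such genes. H4C9 had 1359 reads in A549-vector and 17 in HCC827-vector, H2BC6 had 4038 and 21, and H2BC3 had 1823 and 67. H2BC14 had 4633 reads in A549-vector and 369 in HCC827-vector, while H2AC14 across the spacer had 3720 and 4280. The RPM values of this pair were 111 for H2AC14 and 138 for H2BC14 in A549-vector, but 157 and 13.5 in HCC827-vector, so the counted levels of the partners parted in 1 line. Of the 50-base windows of H2AC14, 66.3% also occur in another histone gene or pseudogene, against 0% for H2BC14. Reads of other copies may therefore be counted in H2AC14, which was not tested.

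In limma on log2(RPM + 0.1), with construct as a covariate, 22 of 61 members tested differed between the lines, 10 higher and 12 lower in A549, at an adjusted p under 0.05 over 19314 genes. Of all genes 30.6% did (15.3% higher and 15.4% lower in A549), so the members' share was near the background. The log2 difference (A549 minus HCC827) was -9.86 (SE 0.625, adjusted p = 9.04e-05) for H4C6 and -8.40 (SE 0.601, adjusted p = 1.33e-04) for H2AC8. It was -8.29 (SE 0.557, adjusted p = 1.04e-04) for H1-5 and 3.17 (SE 0.351, adjusted p = 6.53e-04) for H2BC14. With 0 reads for H4C6 in both A549 libraries and 5 and 0 for H2AC8, the sizes for these 2 genes depend on the 0.1 added. With edgeR they were -14.6 for H4C6 and -10.0 for H2AC8. H2AC14 differed by -0.45 (SE 0.268, adjusted p = 0.253), which missed the threshold. The 2 libraries of a line differ in construct and are not replicates of the line. Fits with 1 of the 4 libraries left out had no term for construct and kept 1 library of one line. They therefore cannot show whether the calls rest on a single library.

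**Figure D4:**
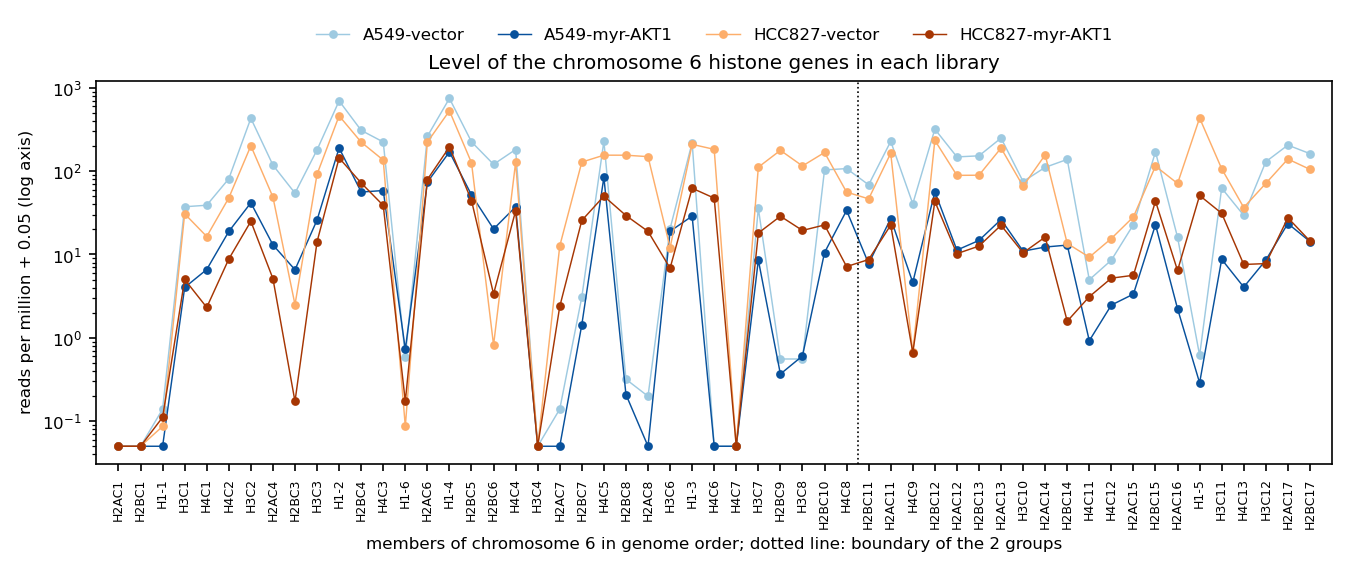
The 55 members on chromosome 6 are placed in genome order on the x axis, with their RPM plus 0.05 in each of the 4 libraries on the y axis (log axis), and the dotted line separates both groups of genes. The A549 lines drop to near 0 at H2AC8, H2BC8, H4C6, H2BC9 and H3C8, where the HCC827 lines stay high, and rise again at H1-3 and H3C7 between them.

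The partners of a head-to-head pair did not always have like fold changes. Among pairs with at least 20 reads for each partner, the counting intervals of the partners lay apart in 4 of 9 pairs in A549 and in 6 of 11 in HCC827. These intervals cover counting error only and narrow with the number of reads. The share for other gene pairs was not counted, so these counts describe the pairs alone. H2AC13 and H2BC13 stood at -3.27 and -3.40 in A549 and at -3.16 and -2.91 in HCC827. H2AC6 and H2BC4 parted in A549, at -1.85 and -2.48. The exons of both overlap those of ENSG00000291336, on the same strand for H2AC6 and on the opposite strand for H2BC4. H2AC12 and H2BC12 parted in both lines, at -3.74 and -2.52 in A549 and at -3.21 and -2.51 in HCC827. H2AC15 and H2BC15 parted in HCC827, at -2.42 and -1.48. H2AC1 and H2BC1, a pair known from testis, had 0 reads in every library, as did H3C4 and H4C7. The exon of H3C4 overlaps ENSG00000282988 on the same strand, which had 3860 reads in HCC827-vector and 312 in HCC827-myr-AKT1. The sources used here do not say how reads in that overlap were counted, so 0 reads need not mean that H3C4 was silent.

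The factors that make or degrade histone mRNA lay nearer to 0 by their median than the histone genes. The list of 20 genes for transcription, 3′ processing and decay of histone mRNA had 19 with reads in both libraries. Their median was -0.45 in A549 and -0.32 in HCC827 on the log2 fold change scale, and 0 of 19 lay below -2 in either line. NPAT stood at -0.75 in A549 and at -1.20 in HCC827, with 2448 reads in HCC827-vector and 673 in HCC827-myr-AKT1. SLBP, named after its values were seen, stood at -0.94 and -0.78. CPSF3, the nuclease that cuts the pre-mRNA, was at -0.90 and -0.95, and its partner CPSF2 at -0.45 and -0.56. NCBP1 of the cap-binding complex stood at -0.80 and -1.14 and TUT7, which adds uridines to decaying histone mRNA, at 0.37 and 0.058.

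Histone chaperones, which carry new histones to DNA, had a median of -0.72 in A549 and -0.86 in HCC827 over 20 genes. In A549 3 of them lay below -2, and in HCC827 0 did. ASF1B, the proliferation-linked H3 and H4 chaperone, had 906 reads in A549-vector and 69 in A549-myr-AKT1 (-3.32) and 1189 and 221 in HCC827 (-1.76). NASP, which holds soluble H3 and H4, was chosen after its values were seen and stood at -1.37 and -1.39, and the FACT subunits SUPT16H and SSRP1 were at -0.97 and -1.30 in A549 and -1.24 and -0.79 in HCC827. NAP1L1, a chaperone of H2A and H2B, was at -0.37 and -0.53.

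Variant histones, which are made outside S phase as well, had a median of -0.38 over 11 genes in A549 and -0.44 over 10 in HCC827. H2AX, which carries the stem-loop as well, had 2630 reads in A549-vector and 313 in A549-myr-AKT1, and 4134 and 692 in HCC827, at -2.68 and -1.92. CENPA, the centromeric H3, was at -2.88 and -0.63 with 939 and 97 reads in A549 and 765 and 313 in HCC827. The replacement genes H3-3A and H3-3B stood at 0.014 and -0.26 in A549 and at -0.25 and -0.89 in HCC827. H1-10 was at 0.70 in A549 and at 1.05 in HCC827.

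Genes of S phase were lower in the myr-AKT1 libraries as well. In A549, 19 of 24 lay below -2, with a median of -2.97, and in HCC827 8 of 24 did, with a median of -1.62. MKI67, a marker of cycling cells, stood at -3.03 in A549 and -1.45 in HCC827, and the replicative helicase subunits MCM7 and MCM4 at -2.78 and -2.95 in A549 and -1.97 and -2.38 in HCC827. PCNA, the sliding clamp, was at -0.79 and -2.09, and CDC45 was the lowest in A549 at -3.84. CCNE1, which encodes cyclin E, was at -0.49 and 0.10. The part of cell cycle distribution in the histone values was not tested.

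Other RNAs that lack a poly(A) tail gave sums above 0, which rested mainly on RN7SL1. Of 28 listed, 20 had reads in both A549 libraries, with a median of 0.39 and a sum at 0.50, and 17 in HCC827, with a median of 0.069 and a sum at 0.41. RN7SL1, the RNA of the signal recognition particle, had 214282 reads in A549-vector and 231118 in A549-myr-AKT1, and 160832 and 135728 in HCC827. The whole list had 243792 reads in A549-myr-AKT1 and 141643 in HCC827-myr-AKT1. Counting intervals lay wholly above 0 for 12 of the 20 RNAs in A549 and for 6 of the 17 in HCC827, and wholly below 0 for 1 in each line. All snRNA, snoRNA and scaRNA genes together took 578 RPM in A549-vector and 711 in A549-myr-AKT1, and 565 and 625 in HCC827, while their median log2 fold change was -0.32 over 485 genes in A549 and 0.031 over 434 in HCC827. The part of RNA selection in the histone values was not tested.

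**Figure D5:**
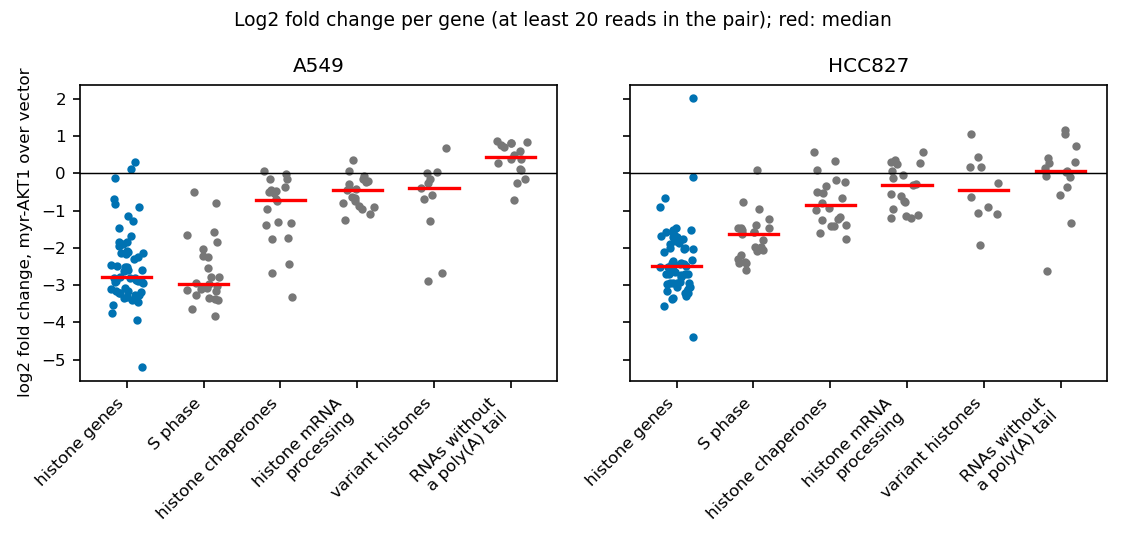
Points are single genes with at least 20 reads in the pair of libraries, with the log2 fold change (myr-AKT1 over vector) on the y axis for A549 on the left and HCC827 on the right, and a red line marks the median of each list. Histone genes and S phase genes lie lowest, and the median of the listed RNAs without a poly(A) tail lies above the histone median in both lines.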

How the data were processed

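RNA of 4 libraries, 1 per group by the sample labels, was sequenced strand-specifically. Adapter trimming, mapping to hg38 with Bowtie2 and counting with HTSeq were done by the authors. The Methods name RPKM, but in the deposited signal every read count of a library was scaled by the same size factor (0.795 to 1.26). Whole reads were recovered within 0.001 of a whole number for all but 2 values. Gene names came from GENCODE release 44 (60261 of 60558 identifiers). The members and lists were chosen with earlier results of these data known. Log2 fold changes are ratios of deposited values with no pseudocount added, and their 95% intervals are Clopper-Pearson. Reads are not independent molecules, so intervals and the floor of 3 reads cover counting error only.

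Because the files hold normalized values and not counts, the fit planned with edgeR was made with limma 3.58.1 on log2(value + 1), and edgeR 4.0.16 on the recovered reads served as an alternative (R 4.3.3, Python 3.11.15). Adjusted p-values are Benjamini-Hochberg. On simulated data for the fit with a line block, limma recovered 200 of 200 changed genes among 19314 with 13 false calls. How far this recovery holds for the 4 libraries was not tested. On the libraries themselves that fit called 585 genes, but 0 with a pseudocount of 0.1. The fit between the lines was added after the data were seen. Genes named were, per class, the 4 members with the most reads, the 2 highest and 2 lowest fold changes per line with at least 20 reads in the pair, members past the threshold and members without reads, and per list the 4 with the most reads and the extremes. Not all of these are printed, and 1 gene is not reported here. Alternatives were other scalings, filters, a pseudocount of 1, a threshold of 1, each class without its leading member, and for the fit another tool, filter, pseudocount and no block.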

Additional observations from a re-analysis of the deposited data

Results flagged for a closer look

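A gene was singled out where its counting interval lay wholly below 0 in one line and wholly above 0 in the other. With 1 library per group, no test of that difference was made. Among the histone genes this was H2BC6, with a log2 fold change (myr-AKT1 over vector) of -2.60 in A549 and 2.03 in HCC827. In HCC827 it rested on 54 and 21 reads, whereas A549 had 508 and 4038. Of the genes for histone mRNA transcription, processing and decay, LSM11 of the U7 particle stood at -0.65 and 0.36. The scaffold SYMPK stood at -0.39 and 0.25, and the helicase UPF1 at -0.16 and 0.57. Among the variant histones H2AJ stood at -0.15 and 0.16 and MACROH2A1 at -0.38 and 0.17. Among the chaperones UBN1 stood at -0.14 and 0.59, and ATRX at 0.071 and -0.98.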

How the results depend on the processing

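Under the alternatives run, no reported median or class sum changed sign, and the counts of members below the threshold stayed within 1.5 times the reported count. The 1 member above 2 in HCC827, H2BC6, was lost with a pseudocount of 1 and with a mean of at least 50. No paired analysis was possible because the labels give no replicate numbers to pair by, and only the cell line served as a block. The median of the members in A549 was -2.68 with TMM, -2.68 with total reads, -2.60 with size factors over 4 libraries, -2.62 with a pseudocount of 1, -2.82 with a mean of at least 50, and -2.16 for members sharing no 50-base window. In HCC827 these were -2.44, -2.35, -2.38, -2.51 and -2.57 (in the same order without the pseudocount), and -2.49 with at least 10 reads in the pair. With size factors over 4 libraries, which moved the median of all genes in A549 by 0.10, the A549 class sums were -2.01 (H1), -2.64 (H2A), -2.73 (H2B), -2.85 (H3) and -1.74 (H4), and in HCC827 -1.88 (H1), -2.43 (H2A) and -2.15 (H2B). With total reads, HCC827 gave -1.85 (H1), -2.40 (H2A), -2.12 (H2B), -2.57 (H3) and -1.94 (H4). Without the leading member, A549 gave -2.09 (no H1-4), -2.88 (no H2AC20), -2.73 (no H2BC18), -2.71 (no H3C2) and -1.97 (no H4C5), and HCC827 gave -2.18, -2.63, -2.14 and -2.54 for the first 4 classes. The H3 class was then no longer the lowest in either line. The fit over both lines called 585 genes, but 0 without the line block (631 at an unadjusted p under 0.05), 0 with a pseudocount of 0.1 (3184 unadjusted) and 1995 when genes with at least 1 read were kept, with the balance turned to 1101 higher and 894 lower, and edgeR called 196 higher and 228 lower. Members called between the lines numbered 22, and 21 with edgeR. Runs with 1 library left out also dropped construct from the model, so their calls are not set beside these. The cause of the differences between the counts of the fits was not tested. With 1 library per group, no value has an error between cultures.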
